A study of Mus musculus with 29 samples.

Results

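The histone cluster genes of the mouse genome were followed through a series of RNA-seq libraries on Myc in B cells and fibroblasts. They were taken as every gene symbol beginning with Hist1h, Hist2h, Hist3h or Hist4h, which gave 64 of the 21819 genes listed for the B cells and 64 of the 21675 listed for the fibroblasts, 67 genes in all and 61 in both. By type, the B cell files held 6 H1, 16 H2A, 18 H2B, 12 H3 and 12 H4 genes, and the fibroblast files 6, 15, 19, 11 and 13. Hist1h2ad, Hist2h3c1 and Hist2h3c2-ps were listed for the B cells only, and Hist1h2bq, Hist1h4n and Hist2h3c2 for the fibroblasts only.

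Core histones H2A, H2B, H3 and H4 form the protein spool around which DNA is wound in the nucleosome, and the linker histone H1 binds the DNA where it enters and leaves. Most genes of the clusters are replication-dependent: they are transcribed in S phase, when new DNA must be packaged, and their mRNAs end in a conserved stem-loop in place of a poly(A) tail. The stem-loop binding protein and the U7 snRNP cut the transcript after the stem-loop, and the mRNA is degraded again when DNA synthesis stops. The libraries were depleted of ribosomal RNA, and the labels give no step that selects poly(A) tails, which such mRNAs lack. Myc is a transcription factor that drives cell growth and division in many tissues.

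The B cell libraries came from C57BL/6 mice. The control group was WT splenic B cells (4 libraries, numbered 1, 3, 4 and 6), and the second group splenic B cells of Tg mice of the Eu-myc model (4 libraries, numbered 2, 3, 4 and 5), in which an immunoglobulin enhancer drives myc in the B lineage. Both were taken at 6 to 8 weeks of age and enriched with magnetic beads against B220. The third group was Tg tumour cells pressed out of lymph nodes with no purification (3 libraries, numbered 1, 2 and 3; no age given), so it differs from the others in tissue and purity as well as in state. The fibroblasts were 3T9 cells from E13.5 embryos of mixed strain, c-myc flox/flox and infected in vitro with MycER, a Myc protein fused to an estrogen receptor domain that becomes active when 4-hydroxytamoxifen (OHT) is added. All of them carried MycER, the 0 h controls in ethanol included, and 400 nM OHT was given for 4, 8 or 16 h (4 libraries at each time). A further library at 0 h and another at 4 h held RNA into which the cells had built 4-thiouridine (4sU, given at 300 µM for 10 min), so that it was made within that time. Nothing in the labels says that the replicates came from separate animals or cultures, so p-values measure the spread between these libraries.

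Levels are FPKM, reads scaled to gene length and to a denominator for each library, as deposited. The B cell and fibroblast values were scaled by different denominators and are not compared. Reads on genes ranged from 9.47 to 17.7 M in the B cell libraries and from 13.4 to 18.5 M in the total RNA libraries of the fibroblasts, and came to 14.35 and 12.71 M in the 4sU libraries at 0 and 4 h. Myc itself was at 226 ± 34.7 FPKM in WT spleen, 1556 ± 604 in Tg spleen (SD, n = 4 each) and 2020 ± 228 in the tumours (SD, n = 3), with log2 fold changes over WT of 2.72 and 3.16. Summed over Cd79a, Cd79b, Ms4a1 and Pax5, B cell marker levels were 26350 to 31070 FPKM in WT spleen, 16910 to 27780 in Tg spleen and 1165 to 13880 in the tumours. Markers of connective tissue (4 genes, 5.1 to 7.6 FPKM in WT spleen and 391 to 577.5 in the tumours) and of salivary gland and pancreas (4 genes, 3.9 to 44.0 and 2161 to 9669) were also higher in the tumours. T cell markers (4 genes) were at 79.4 to 186 FPKM in WT spleen, 18.0 to 93.2 in Tg spleen and 181 to 682 in the tumours, and 2 of 4 rose in tumours over each spleen group. NK cell markers (3 genes) were at 143 to 266, 23.8 to 119.9 and 45.8 to 48.6 FPKM, with 2 of 3 lower in Tg and 3 of 3 in tumours than in WT spleen. Macrophage markers (3 genes) were at 1261 to 1792, 647 to 1373 and 279 to 808 FPKM, with 2 of 3 lower in tumours than in either spleen group. In Tg over WT spleen, 2 of 4 B cell markers fell as well. The part of other cells in the results was not tested. Fewer cells of a type and less RNA per cell cannot be told apart in such bulk samples. Near-identical coding sequences within a histone type mean that reads can be shared or lost between members, so the value of a single member is less certain than that of its type.

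The sequences that set these genes apart lie just before their starts and at the ends of their mRNAs. In RefSeq's promoter table for GRCm38.p6, 61 of the 67 genes were found. The 150 bases before the start are shown for the member of each type with the highest mean level over the 11 B cell libraries among those in the table, since these are the genes that the B cell results turn on. Capitals mark the TATA box as TATAAA, the CCAAT box (written ATTGG where it lies on the other strand) and the octamer ATTTGCAT. These are Hist1h1a, an H1 gene (chr13:23763518-23763667, plus strand), Hist2h2ac, an H2A gene (chr3:96220881-96221030, minus strand), Hist2h2bb, an H2B gene (chr3:96269550-96269699, plus strand), Hist1h3e, an H3 gene (chr13:23562386-23562535, minus strand), and Hist1h4d, an H4 gene (chr13:23581418-23581567, plus strand).
Hist1h1a: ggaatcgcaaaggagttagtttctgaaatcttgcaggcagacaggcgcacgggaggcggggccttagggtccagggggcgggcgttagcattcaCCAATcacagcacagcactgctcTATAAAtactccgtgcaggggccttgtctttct
Hist2h2ac: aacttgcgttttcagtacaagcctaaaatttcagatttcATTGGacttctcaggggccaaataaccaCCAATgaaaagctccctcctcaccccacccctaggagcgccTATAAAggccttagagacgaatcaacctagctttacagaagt
Hist2h2bb: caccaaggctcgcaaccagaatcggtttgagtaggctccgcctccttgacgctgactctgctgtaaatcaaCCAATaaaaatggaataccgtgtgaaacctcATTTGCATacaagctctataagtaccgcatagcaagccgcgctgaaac
Hist1h3e: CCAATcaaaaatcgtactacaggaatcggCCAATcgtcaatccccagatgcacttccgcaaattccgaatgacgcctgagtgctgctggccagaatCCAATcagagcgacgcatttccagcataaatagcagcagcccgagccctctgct
Hist1h4d: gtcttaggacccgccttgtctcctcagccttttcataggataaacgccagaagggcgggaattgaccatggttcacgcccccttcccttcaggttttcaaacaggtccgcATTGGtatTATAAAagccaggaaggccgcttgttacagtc

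Searched on both strands from 250 bases before to 50 after the start, CCAAT lay in the promoters of 52 of the 61 genes (85.2%, against 37.4% of all 32851 promoters in the table). It was there in 6 of 6 H1, 16 of 16 H2A, 16 of 16 H2B and 11 of 11 H3 genes, but in 3 of 12 H4 genes. TATAAA lay in 35 of 61 (57.4%, against 13.6% of all). The octamer ATTTGCAT lay in 14 (23.0%, against 1.74%): in 7 of 16 H2A and 7 of 16 H2B genes and in no H1, H3 or H4 gene. These counts are not independent. The H3 genes Hist2h3c2 and Hist2h3c2-ps have the same window, which leaves 10 distinct H3 windows, and 9 H2A windows overlap the window of an H2B neighbour, so that a match between such a pair counts for both types. The octamer lay at 11 distinct places in the H2A and H2B windows together. CACGTG, the canonical E-box to which Myc binds, was in 0 of the 61 windows and in 7.15% of all. A match is a description of the letters and not a binding site, and a window without these letters says nothing about the factor.

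At the other end of the mRNA, the stem-loop was searched on the transcript strand of GENCODE transcripts for GRCm38, as 16 letters. The 10 fixed letters were GG at the start, then CTT, T and A with free letters between them, and GCC at the end. The 16 letters were found in 42 of 66 members and in 140 of 55275 other genes (0.253%). By type they were in 4 of 6 H1, 9 of 16 H2A, 10 of 19 H2B, 9 of 12 H3 and 10 of 13 H4 genes. The examples show the 16 letters, stem and loop together, in capitals within 26 bases. The same core is seen in an H1, an H2A and an H3 gene, and a stem with CCC and GGG in its arms in an H4 gene.
Hist1h1c: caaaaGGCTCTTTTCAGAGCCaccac
Hist1h2ab: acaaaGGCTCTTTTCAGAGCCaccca
Hist1h2bb: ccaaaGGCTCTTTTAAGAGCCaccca
Hist1h3a: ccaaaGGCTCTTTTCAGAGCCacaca
Hist1h4d: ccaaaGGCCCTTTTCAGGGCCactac
The letters were not found in the transcripts of Hist1h1a, Hist1h1b, Hist2h2bb or Hist2h3b. A transcript annotated only to the end of its coding sequence could not hold the letters. Not finding them therefore does not show that a gene has no stem-loop. In the B cells, the median log2 fold change was 2.23 for the 40 tested members with the letters and 2.48 for the 22 without them in Tg over WT spleen, and 2.91 and 3.09 in tumours over WT spleen.

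Histone mRNA of all types was higher in Tg than in WT splenic B cells. The summed FPKM of the 64 members was 52414, 89230.1, 20219 and 48748 in the WT libraries, against 110907, 232911, 292867 and 353299 in the Tg spleen libraries and 376830.0, 455494 and 216192 in the tumours. The lowest Tg library was above the highest WT library. The ratio of group means was 4.70 for Tg over WT spleen and 6.64 for tumours over WT spleen. With limma on log2(FPKM + 0.5) over all genes, and p-values adjusted by Benjamini and Hochberg over all 14021 tested, 60 of 63 tested members rose in Tg spleen and none fell, where 15.7% of all genes rose and 12.2% fell. Their median log2 fold change was 2.36, a 5.15-fold difference, beside -0.05 for all genes. Hist1h2br, listed at 0 in all 11 libraries, was not tested.

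**Figure D1:**
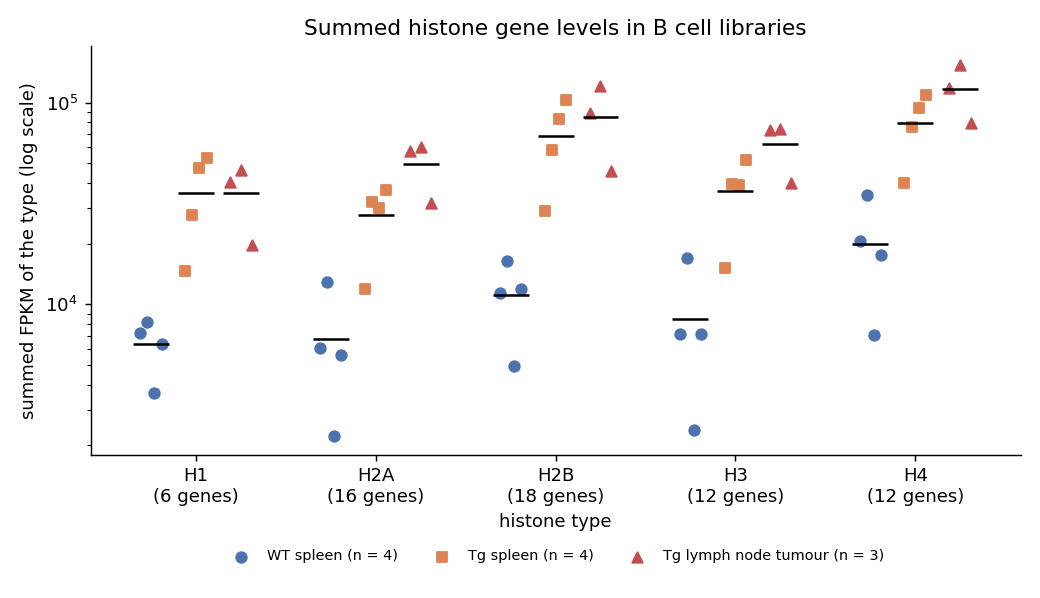
Summed FPKM of the members of each histone type in each B cell library (points, log axis), by group, with the group mean as a bar. The WT spleen mean is the lowest for each type (H4 mean 20013 FPKM, against 79386 in Tg spleen and 117060.0 in tumours). The libraries of WT and Tg spleen overlap for H2A and H3, where WT library 3 (12938 and 17029.5 FPKM) lies above Tg library 2 (11962 and 15209.8).

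The linker histones held both the gene with the largest change and one that did not pass. Hist1h1a, which codes for H1.1, stood at 1598, 1527, 666 and 1475 FPKM in the WT spleen libraries, 5444, 10262, 18405 and 20374 in the Tg spleen libraries and 14015, 21268 and 6763 in the tumours. All Tg libraries lay above all WT libraries, with a log2 fold change of 3.27 (SE 0.438, adjusted p = 0.00235), the largest of any member in that comparison. Hist1h1b, coding for H1.5, was at 1444, 1536, 712 and 1545 FPKM in the WT spleen libraries, 4336, 8342, 16069 and 17089 in the Tg spleen libraries and 13448, 12582 and 6128 in the tumours, again without overlap (3.00, SE 0.441, adjusted p = 0.00324). Hist1h1e, coding for H1.4, rose by 1.79 (SE 0.392, adjusted p = 0.0111). Levels of Hist1h1c, the gene for H1.2, overlapped: 2628, 3414, 1317 and 1965 FPKM in the WT spleen libraries, 2558, 4789.7, 5665 and 7215 in the Tg spleen libraries and 6464, 6536 and 3628 in the tumours. Its fold change was the smallest among the H1 genes that passed the test, with a log2 value of 1.11 (SE 0.366, adjusted p = 0.0468). Hist1h1t, the testis linker histone, did not pass: its WT libraries held 5.30, 10.5, 2.90 and 1.00 FPKM, its Tg spleen libraries 1.00, 10.2, 10.0 and 28.2 and its tumours 5.30, 4.90 and 0, with log2 fold changes of 0.97 (SE 0.871, adjusted p = 0.42) in Tg spleen and -0.76 (SE 1.01, adjusted p = 0.582) in tumours. Of the 6 H1 genes 5 rose in each of those comparisons, with median log2 values of 1.85 and 1.90.

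Among H2A genes, 16 of 16 rose in Tg spleen (median log2 2.36) and 16 of 16 in tumours (3.15). Hist2h2ac had the highest mean level over the 11 libraries, with 1459, 2474, 544 and 1377 FPKM in the WT spleen libraries, 2283, 4810.0, 5154 and 6126 in the Tg spleen libraries and 11278, 12929 and 4858 in the tumours. In Tg spleen its mean (4593 FPKM) was below that of Hist1h2ab (5063). The WT and Tg spleen ranges overlapped, while each tumour lay above each WT library (log2 1.75, adjusted p = 0.0195, and 2.80, adjusted p = 0.00575). Hist1h2ab was at 774, 1905, 316 and 885 FPKM in the WT spleen libraries, 1806, 5426, 5957 and 7062 in the Tg spleen libraries and 8959.7, 8611 and 5529.5 in the tumours (log2 2.49 and 3.23 over WT). Hist1h2ak and Hist1h2ai, the next in level, rose in Tg spleen by 2.44 and 2.33 on the log2 scale and in tumours by 2.90 and 3.28. Hist1h2ah had the largest change of the type, 3.15 in Tg spleen and 4.28 in tumours (19.4-fold, SE 0.588, adjusted p = 0.00132). Hist1h2aa, known as a testis H2A, also rose, by 2.18 and 3.08, from 34.1, 129, 27.5 and 114 FPKM in WT spleen to 103, 338, 333 and 518 in Tg spleen and 668, 504 and 414 in tumours.

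The H2B genes had the largest median change in Tg spleen, 2.60 on the log2 scale (6.07-fold), with 16 of 17 called. Hist2h2bb had the highest level per length of the whole set as a mean over the 11 libraries, at 3124, 3549, 1082 and 3014 FPKM in the WT spleen libraries, 7873, 13987, 21083 and 24449 in the Tg spleen libraries and 34607, 51523 and 11318 in the tumours. In WT spleen, the H4 genes Hist1h4d (mean 3563 FPKM), Hist1h4c (2962) and Hist1h4a (2942) stood above it (2692). All Tg libraries lay above all WT libraries, with a log2 fold change of 2.65 (SE 0.447, adjusted p = 0.00443). Hist1h2bb followed among the H2B genes, at 1918, 3034, 919 and 2339 FPKM in the WT spleen libraries, 5129, 10628, 15572 and 20071 in the Tg spleen libraries and 13036, 18176 and 9076 in the tumours (log2 2.60, adjusted p = 0.00522). Hist1h2bm rose by 2.88 and Hist1h2ba, known as a testis H2B, by 2.38 (adjusted p = 0.0139). Hist1h2bk had the largest change of the type: 459.7, 734, 157 and 396 FPKM in the WT spleen libraries, 1756, 3685, 4317 and 4998 in the Tg spleen libraries and 4529, 6636 and 3182 in the tumours (log2 3.17, SE 0.46). The member that did not pass was Hist2h2be, an H2B variant known from olfactory neurons, with 69.2, 83.9, 52.2 and 88.4 FPKM in the WT spleen libraries, 67.4, 119, 111 and 154 in the Tg spleen libraries and 107, 163 and 74.2 in the tumours. Its ranges overlapped in both spleen groups, and its log2 fold changes were 0.59 (SE 0.258, adjusted p = 0.113) and 0.60 (SE 0.3, adjusted p = 0.15). In tumours, 16 of 17 H2B genes rose, with a median log2 value of 2.62.

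For H3, 11 of 12 genes rose in Tg spleen (median log2 2.48) and 12 of 12 in tumours (3.28). Hist1h3a had the highest mean level over the 11 libraries, at 1375, 3492, 627 and 1879 FPKM in the WT spleen libraries, 3100.0, 8899, 10484 and 12902 in the Tg spleen libraries and 15912, 14908 and 9219 in the tumours (log2 2.34, adjusted p = 0.0146). In WT spleen its mean (1843 FPKM) was below that of Hist1h3e (1913). Hist1h3e rose by 1.91, Hist2h3b by 2.01 and Hist1h3b by 2.64 in Tg spleen, and by 2.69, 3.33 and 3.51 in tumours. Hist2h3c1, a member of the Hist2 cluster, stood far lower, at 8.90, 52.5, 1.60 and 27.6 FPKM in the WT spleen libraries, 26.8, 108, 91.8 and 175 in the Tg spleen libraries and 620.5, 689.7 and 150 in the tumours. It did not pass in Tg spleen (2.67, SE 0.985, adjusted p = 0.0733) and had the largest change of all members in tumours, 4.94 (30.6-fold, SE 1.08, adjusted p = 0.00967).

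All 12 H4 genes rose in both comparisons, with median log2 values of 2.16 in Tg spleen and 2.85 in tumours. Hist1h4d was at 3748, 6182, 1510.0 and 2813 FPKM in the WT spleen libraries, 7529.5, 12527, 16703 and 20395 in the Tg spleen libraries and 20339, 23963 and 12257 in the tumours, with no overlap between WT and either Tg group (log2 2.09, SE 0.438, adjusted p = 0.00942). Hist1h4a, whose protein is the same H4, was at 2172, 5107, 1087 and 3401 FPKM in the WT spleen libraries, 4658, 11902, 16391 and 19794 in the Tg spleen libraries and 18484, 19206 and 13637 in the tumours (log2 2.19). Hist2h4 and Hist1h4f rose by 2.12 and 2.54 in Tg spleen. Hist4h4, the member of the clusters that lies apart from the others, was at 1808, 2844, 575 and 1352 FPKM in the WT spleen libraries, 3141, 5141, 5790.0 and 6374 in the Tg spleen libraries and 10427, 15097 and 9133 in the tumours (log2 1.80 and 3.00 over WT). As a share of all histone FPKM, H4 was the largest type in each group, at a mean of 37.3% in WT spleen, 32.8% in Tg spleen and 33.9% in tumours. H2B followed at 22.2%, 27.2% and 23.7%, and H1, H2A and H3 each made up 10.0% to 18.0%.

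**Figure D2:**
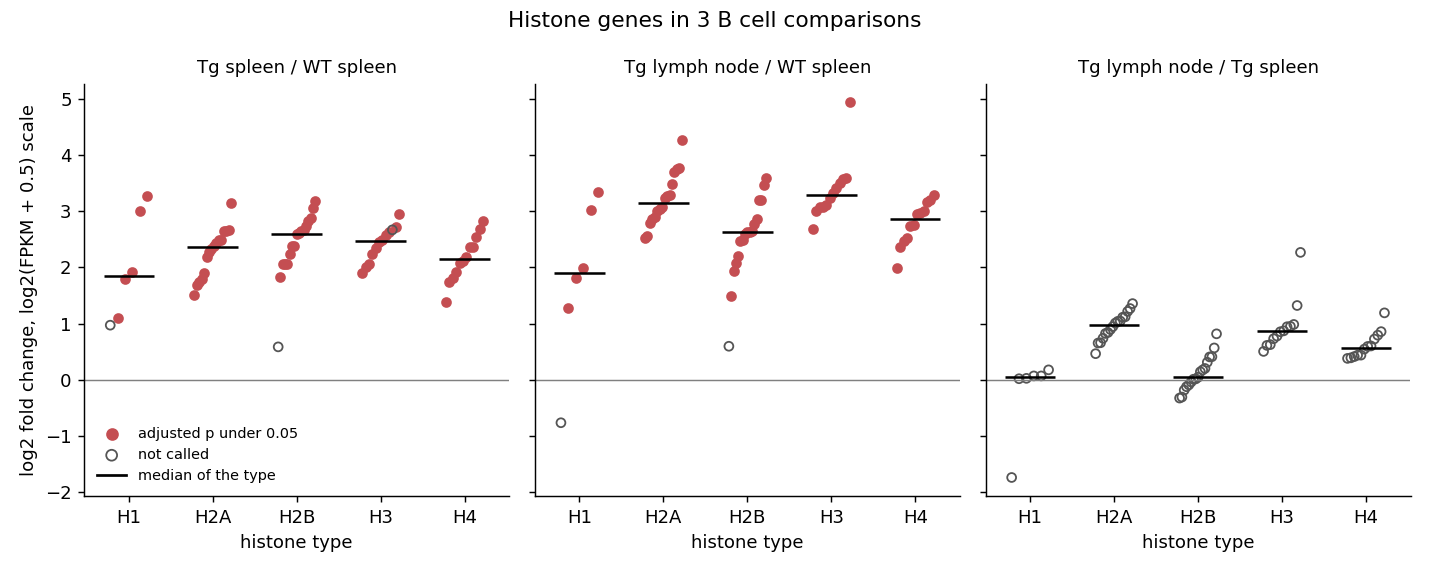
Log2 fold change of each tested member (filled where called, open where not) by histone type for Tg over WT spleen, tumours (Tg lymph node) over WT spleen and tumours over Tg spleen, from limma on log2(FPKM + 0.5), with a bar at the type's median. Nearly all points lie above 0 in the comparisons with WT spleen (overall medians 2.36 and 3.00), and in tumours over Tg spleen the H1 and H2B medians lie at 0.05.

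By cluster, 49 of 50 Hist1 genes, 7 of 9 Hist2 genes and 3 of 3 Hist3 genes rose in Tg spleen, with medians of 2.45, 2.01 and 2.05. Of the 63 members, 34 had each Tg spleen library above each WT library, against 16.9% of all genes. These were 4 of 6 H1, 4 of 16 H2A, 14 of 17 H2B, 3 of 12 H3 and 9 of 12 H4 genes. The same libraries stood at the ends for most members. WT library 4 was the lowest WT library for 62 of 63 members and WT library 3 the highest for 60. Tg spleen library 2 was the lowest of its group for 63 of 63 members, and library 5 the highest for 54.

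The libraries also differed in Rpph1, the RNA component of RNase P and one of the most abundant transcripts listed. Rpph1 stood at 698889, 735331, 210796 and 153474 FPKM in the WT libraries and 545353, 633095, 215865 and 208019 in the Tg spleen libraries, so each group had a pair with high and a pair with low values. Within the pairs with high Rpph1 (WT 1 and 3, Tg 2 and 3), 62 of 63 members were higher in Tg and 5 were called, with a median log2 fold change of 1.26. Of 14202 genes, 908 rose and 518 fell there, so the share of members called was near that of all genes. The 5 members called were Hist1h1a (2.26), Hist1h1b (2.01), Hist1h2bj (2.12), Hist1h2bm (1.78) and Hist2h2bb (1.66). Within the pairs with low Rpph1 (WT 4 and 6, Tg 4 and 5), 62 of 63 were called and the median was 3.42. There, 1960 of 14263 genes rose and 1374 fell. With Rpph1 as a covariate, 59 members were called, while 2435 of 14021 genes rose and 1945 fell. Leaving out single libraries gave 30 to 61 called members, with 30 called without Tg spleen library 4 and 38 without library 5. In those fits, 1628 of 14271 and 1470 of 14229 genes rose. The part of Rpph1 in the histone levels was not tested.

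Tumours stood above WT spleen in 61 of 63 members and none fell, where 20.3% of 14758 genes rose and 17.7% fell. The median log2 fold change was 3.00 (7.98-fold), beside 0.05 for all genes. Each of those 61 members had all 3 tumours above all 4 WT libraries, a pattern found in 24.0% of all genes. Tumour library 3 was the lowest of its group for 63 of 63 members and tumour library 2 the highest for 50. The comparisons of Tg spleen and of tumours share the 4 WT libraries, so their likeness is not a second observation.

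Between tumours and Tg spleen, limma called no member (3.56% of 14692 genes rose and 2.39% fell). At an unadjusted p under 0.05, 13 of 63 members were higher and none lower: 8 H2A, 3 H3 and 2 H4 genes. Of all 14692 genes, 3409 were under that p in either direction, so such p-values were no more frequent among the members. The median log2 difference was 0.60 over the 63 members, of which 56 were above 0, beside 0.02 for all genes. The types differed in where they lay, with medians of 0.05 for H1, 0.98 for H2A, 0.05 for H2B, 0.86 for H3 and 0.57 for H4. In summed FPKM, tumours over Tg spleen came to 0.999 for H1, 1.79 for H2A, 1.24 for H2B, 1.71 for H3 and 1.48 for H4. Differences between the types were not tested. In 3 members, all tumours lay above all Tg spleen libraries, against 11.8% of all genes: Hist2h2ab, Hist3h2a and Hist4h4. Hist2h2ab was at 544, 1217, 1682 and 1882 FPKM in Tg spleen and 4169.5, 3497 and 2009.9 in tumours (1.36, SE 0.459, adjusted p = 0.124), and Hist4h4 differed by 1.19 (SE 0.336, adjusted p = 0.0781). Hist2h3c1 had the largest difference (2.27, SE 0.709, adjusted p = 0.103) and was called only when tumour library 3 was left out (2.97, adjusted p = 0.0333). Hist1h1t had the smallest (-1.74, adjusted p = 0.412).

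Genes that serve the histone supply moved less and fewer of them passed. In Tg over WT spleen, 5 of 9 genes of histone gene transcription rose, led by the cyclins Ccne2 (log2 2.28) and Ccne1 (1.17) and their kinase Cdk2 (0.74), which switch histone transcription on through NPAT in S phase. Npat itself was at 135, 126, 101 and 130.1 FPKM in WT spleen and 135, 154, 176 and 146 in Tg spleen, and did not pass. In 3′ processing, 6 of 12 rose, among them Slbp, the stem-loop binding protein (0.99, adjusted p = 0.0208), and the cap-binding subunits Ncbp1 (0.63) and Ncbp2 (0.98). Slbp stood at 313, 353, 279 and 396 FPKM in WT spleen, 406, 563, 922 and 909.5 in Tg spleen and 609.9, 726 and 421 in tumours, so its fold change in Tg over WT spleen was smaller than that of any H2A, H3 or H4 member. Of the genes for chaperones and deposition, 9 of 13 rose, led by Chaf1a (2.07) and Chaf1b (1.61), subunits of the CAF-1 complex that deposits new H3 and H4, and Asf1b (1.89). Of 6 genes of histone mRNA decay, Eri1, an exonuclease that trims the stem-loop end, rose (0.60). None of these lists had a gene that fell, and their median log2 fold changes were 0.50, 0.50, 0.80 and -0.25 in the order transcription, processing, chaperones and decay.

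Of 11 genes listed as replication-independent histone variants, which can also be made outside S phase and have poly(A) signals, 6 rose in Tg spleen (median 0.85). These were led by H2afz (1.45), Cenpa, the centromeric H3 (1.22), and H2afx (2.11), whose mRNA is known in both stem-loop and polyadenylated forms. H2afx was at 778, 1879.9, 398 and 935 FPKM in WT spleen, 1554, 4108, 4914 and 6066 in Tg spleen and 8075, 9198 and 5685 in tumours, with the same libraries at both ends of each group as for most cluster genes. In tumours over WT spleen, 4 of 11 variants rose (H2afj 2.16, H2afz 2.26 and H2afx 3.13 among them), as did 7 of 12 processing genes (Ncbp1 0.86, Srrt 0.83, Zfp473 1.36) while 1 fell. There, 4 of 9 transcription genes rose (Ccne2 2.50), 9 of 13 chaperone genes rose (Chaf1a 2.52, Nasp 1.19), and of the decay genes Eri1 rose (0.61) while Zcchc11 (-1.47) and Smg1 (-0.69) fell. Between tumours and Tg spleen, limma called none of the 63 genes in these lists and the list of DNA replication genes, with 3 higher and 2 lower at an unadjusted p under 0.05. Of all 14692 genes, 3409 were under that p in either direction. Genes of DNA replication were higher as well: 11 of 12 rose in each comparison with WT spleen, and their summed level was 2419 to 3193 FPKM in WT spleen, 4844 to 13950.0 in Tg spleen and 6409 to 10180.0 in tumours. The part of S-phase cells in the histone levels was not tested.

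In the fibroblasts, no histone gene was called at any time of Myc activation on the deposited values, and these values had an upper limit near which many members lay. Reads per base of gene, recovered from the steps of the low values, did not pass 2.33 in the fibroblast libraries for the 12500 tested genes longer than 300 bases, nor 2.90 for the 21473 genes of any length whose reads were recovered. In the B cell libraries they reached 173 to 616 among genes longer than 300 bases. The median of a member over the 16 libraries was above 1.5 reads per base for 31 of 64 members and above 1 for 46. Hist1h2bk had the highest, between 1.90 and 2.00 in the 16 libraries (725 to 763 reads over 381 bases). Hist1h4d, with 312 bases, held 548 to 586 reads. For the 58 members with a median of at least 400 reads, the highest library was 1.04 to 1.33 times the lowest (median 1.10), while the library denominators differed by 1.38 times. How reads were kept or dropped is not given in the sources used here. A higher mRNA level could not show in genes at that limit, so the order of their levels is not read.

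**Figure D3:**
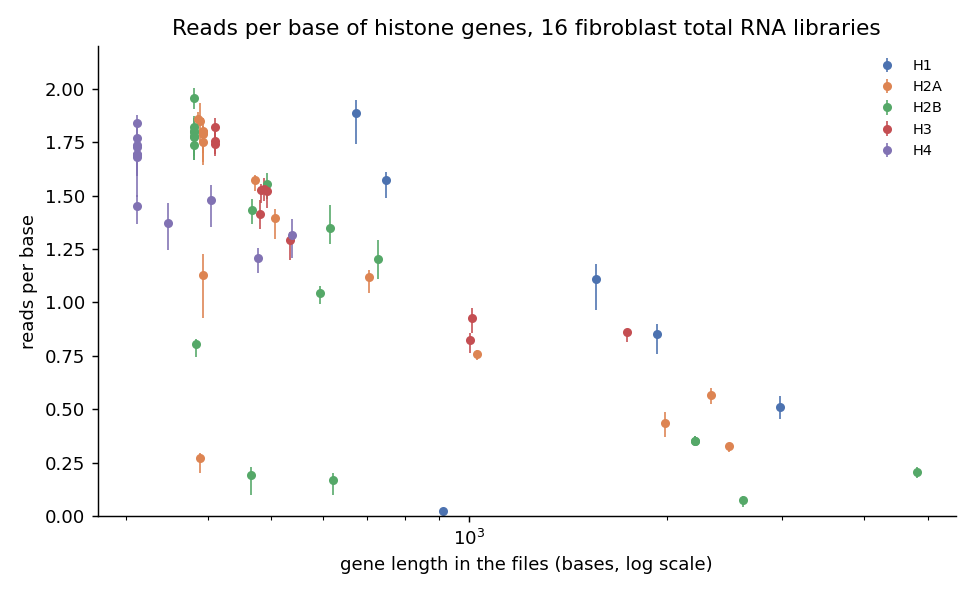
Reads per base (vertical axis) against gene length in bases (horizontal, log axis) for each member in the 16 fibroblast total RNA libraries, with points at the median and lines over the range, coloured by histone type. Many of the shorter genes lie between 1.5 and 2.00 reads per base, up to a median of 1.96 for Hist1h2bk, while Hist1h1t lies at 0.026.

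The deposited fibroblast values had a second fault of scale. Whole reads came out for 12890 of 12934 tested genes only when each gene's 16 values were taken with the 16 library denominators in rotated order, by a number of steps that differed between genes, and for 809 genes with each library's own denominator. A value was taken as whole within the error of rounding to 3 decimals. Each time point was therefore tested on the deposited values and on values recomputed with each library's own denominator. On the deposited scale, limma called none of the 64 members at 4, 8 or 16 h, with 0, 1 and 3 lower at an unadjusted p under 0.05 and none higher. Of 12934 genes, 1.9% rose and 2.88% fell at 4 h, 1.21% and 0.982% at 8 h, and 1.76% and 7.75% at 16 h. At an unadjusted p under 0.05 there were 2122, 1667 and 3039 of them in either direction, a larger share than of the members. The members' median log2 fold changes were -0.05, -0.04 and -0.04, beside -0.04, -0.06 and -0.14 for all genes. With median ratio scaling the counts over all genes came to 736 higher and 712 lower at 4 h, 651 and 382 at 8 h, and 977 and 936 at 16 h, in place of 246 and 372, 156 and 127, and 228 and 1002. That scaling also turned the direction of the members' medians, to 0.03, 0.05 and 0.16 (beside 0.03, 0.04 and 0.05 for all genes), with 45, 40 and 58 of 64 members above 0 in place of 25, 26 and 17. With it limma again called no member, with 1, 0 and 5 higher and none lower at an unadjusted p under 0.05. Of all 12845 genes, 3023, 2571 and 3544 were under that p in either direction.

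Values of single members show how narrow the range was. Hist1h2bk was deposited at 115, 113, 135 and 105 FPKM at 0 h, 143, 116, 140.1 and 115 at 4 h, 111, 114, 113 and 128 at 8 h and 121, 102, 119 and 108 at 16 h, with all 4 times overlapping. Hist1h1b was at 112, 107, 111 and 112 FPKM at 0 h, 124, 101, 142 and 115 at 4 h, 134, 109, 108 and 114 at 8 h and 111, 113, 115 and 100.0 at 16 h. Summed over the 64 members, the deposited level was 5028 ± 51.2 FPKM at 0 h, 4944 ± 78.4 at 4 h, 4903 ± 59.1 at 8 h and 4876 ± 156 at 16 h (SD, n = 4 each). The largest and smallest changes were Hist3h2a (0.18) and Hist2h2aa1 (-0.19) at 4 h, Hist1h2bf (0.16) and Hist2h2be (-0.29) at 8 h, and Hist1h2ai (0.12) and Hist3h2ba (-0.46, SE 0.203, adjusted p = 0.171) at 16 h. The comparisons share the 4 libraries at 0 h.

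With each library's own denominator, limma called 0, 0 and 1 of the 64 members at 4, 8 and 16 h, where 11.1%, 8.78% and 12.7% of 12818 genes rose and 12.1%, 8.28% and 15.9% fell. At an unadjusted p under 0.05, 1 member was higher at each time, none was lower at 4 or 8 h, and 1 was lower at 16 h. Of all 12818 genes, 4371, 3672 and 4977 were under that p in either direction, a far larger share. Members' medians were 0.03, 0.02 and 0.10, beside 0.01, -0.01 and -0.01 for all genes. The member called was Hist3h2a, an H2A gene of the small Hist3 cluster with a median of 0.436 reads per base. That is an average over its 1990 bases, and whether part of the gene lay near the upper limit was not tested. On this scale it was at 25.0, 25.2, 25.0 and 23.2 FPKM at 0 h, 27.7, 26.9, 25.5 and 26.0 at 4 h, 25.6, 26.2, 25.9 and 28.2 at 8 h and 26.3, 27.5, 27.0 and 28.5 at 16 h, a log2 fold change of 0.15 at 16 h (SE 0.0446, adjusted p = 0.0208). All 16 h values lay above all 0 h values, as in 12.6% of all genes. On the deposited scale the same gene changed by 0.04 at 16 h (adjusted p = 0.908). The library denominators were 17.0, 17.5, 16.9 and 17.3 M at 0 h and 18.6, 13.5, 16.9 and 14.1 M at 16 h. Hist3h2a held 847, 877, 842 and 800 reads at 0 h and 974, 740, 906 and 803 at 16 h. Its neighbour Hist3h2bb-ps, labelled a pseudogene, went the other way, from 12.0, 12.8, 12.1 and 10.1 FPKM at 0 h to 11.4, 7.31, 9.94 and 9.43 at 16 h (-0.30, SE 0.112, adjusted p = 0.0591). These ranges overlapped. The summed reads of the members varied by 1.10 times over the libraries (42517 to 46646), so on this scale the libraries with the lowest denominators had the highest histone sums: 5677 FPKM at 13.5 M in 16 h library 2, against 4447 at 18.7 M in 4 h library 3.

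**Figure D4:**
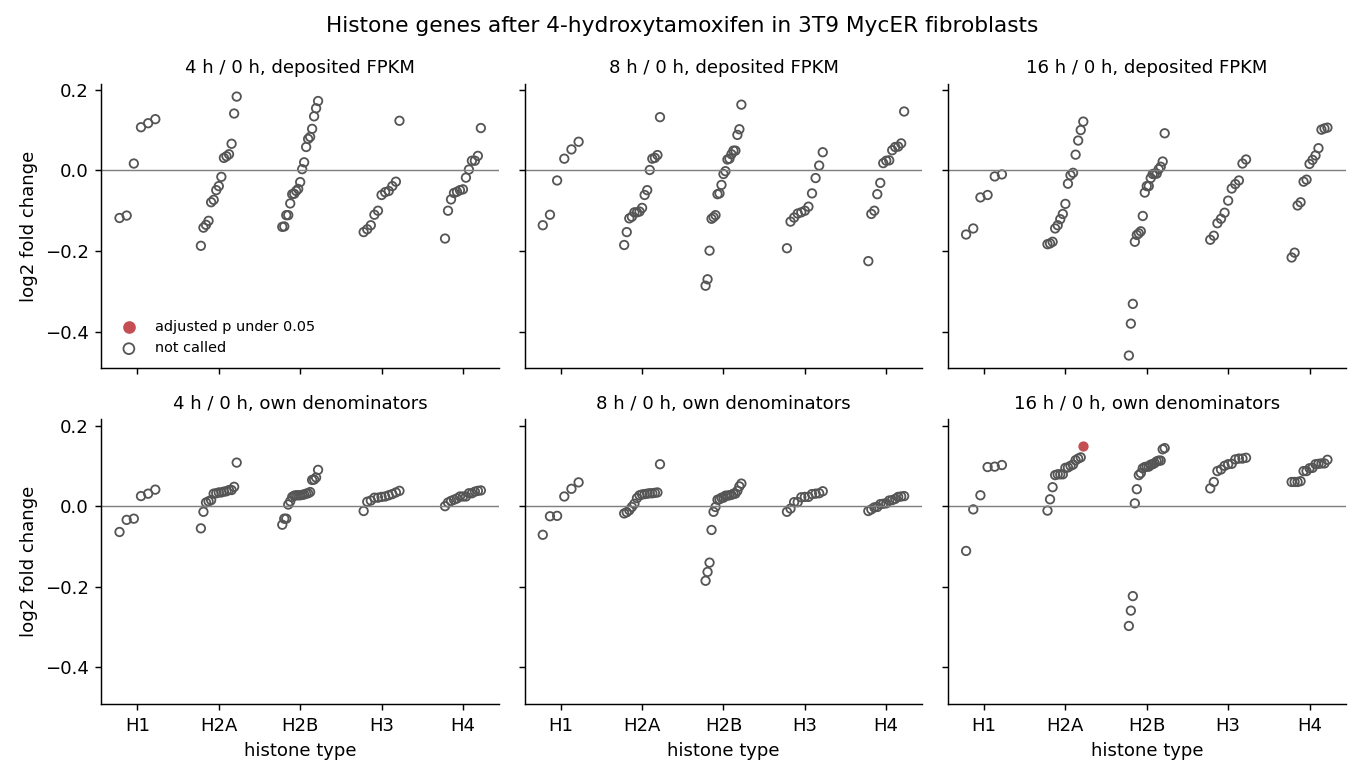
Log2 fold change over 0 h of each member (points) at 4, 8 and 16 h of OHT, by histone type, on the deposited scale (upper panels) and with each library's own denominator (lower panels), filled where called. Points scatter around 0 (deposited medians -0.05, -0.04 and -0.04), 1 point is called (Hist3h2a at 16 h, own denominators), and the lowest deposited value is -0.46 for Hist3h2ba at 16 h.

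The genes of the histone supply lists gave 1 call on the deposited fibroblast values, Hinfp, a factor for H4 transcription, which fell by 0.48 on the log2 scale at 16 h (adjusted p = 0.0413). With own denominators, 8, 4 and 7 of the 60 genes tested in these lists and the list of DNA replication genes rose at 4, 8 and 16 h (13.3%, 6.67% and 11.7%) and 3, 3 and 4 fell (5.0%, 5.0% and 6.67%), which is near or below the shares of all genes on that scale given above. Ccne1 rose at all 3 times (0.37, 0.35 and 0.42) and Cdk2 fell (-0.20, -0.31 and -0.26). Lsm11, a subunit of the U7 snRNP, rose by 0.22, 0.25 and 0.23 and the variant H2afj by 0.32, 0.36 and 0.29. H2afv fell at 4 and 16 h (-0.49 and -0.52), as did H1f0, the linker histone of resting cells (-0.29 and -0.25). Of the 12 DNA replication genes none rose, and 1 fell at 8 h (Rrm2, -0.16).

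In newly made RNA, each histone gene with at least 1 FPKM in either 4sU library was higher at 4 h of OHT than at 0 h relative to the other genes. There is 1 library at each time, so these are differences between libraries with no replicate check. All 60 such members lay above the median of all 12375 genes (0.02, with 50.0% of genes above it by construction), with a median log2 ratio of 0.41 and a range of 0.21 to 0.94. The quartiles of all genes were -0.16 and 0.19. On the scale of log2(FPKM + 0.5), no member passed 2-fold, where 1.19% of all genes were up and 0.703% down by that much. Hist1h2aa had the highest ratio (0.94), from 1.56 to 3.47 FPKM, and came to 1.1 with a pseudocount of 0.1, past 2-fold. Among members of at least 5 FPKM, the largest ratios were those of Hist1h2ba (from 12.9 to 22.4 FPKM, 0.77), Hist2h2ab (from 9.77 to 16.0 FPKM, 0.68), Hist1h4n (from 32.4 to 49.8 FPKM, 0.61) and Hist1h4c (from 29.2 to 43.2 FPKM, 0.56). The smallest were Hist2h2aa1 (from 29.9 to 34.6 FPKM, 0.21), Hist2h2bb (from 38.5 to 45.4 FPKM, 0.23), Hist1h2be (from 8.26 to 9.93 FPKM, 0.25) and Hist1h1b (from 38.0 to 45.5 FPKM, 0.26). Type medians were 0.30 for H1, 0.39 for H2A, 0.40 for H2B, 0.43 for H3 and 0.45 for H4.

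The 2 libraries also differed in their denominators. In reads, the members' median log2 ratio of 4 h to 0 h was 0.23, all 60 had more reads at 4 h, and the range was 0.02 to 0.96. The log2 ratio of the denominators, 27.9 M at 0 h and 24.4 M at 4 h, was 0.19. The 4sU libraries had the same kind of upper limit, with no listed gene above 2.37 reads per base at 0 h or 2.14 at 4 h. At 0 h, 20 of the 60 members were above 1 read per base and at 4 h 36, the highest at 1.37 and 1.55.

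Set against total RNA of the same time, the 4sU level of the histone genes was low at 0 h. The median log2 ratio of 4sU to mean total RNA was -1.49 for the 64 members and -1.14 for all 12981 genes, and 6 of 64 members lay above that median (50.0% of all genes do). At 4 h it was -1.01, beside -1.05 for all 12832 genes, and 39 of 64 lay above; 31 to 46 of 64 did with other pseudocounts or with a total RNA library left out. A ratio of 0.5 or less was found for 60 members at 0 h (55.7% of all genes) and 33 at 4 h (52.3%). By type the medians ran from -1.63 for H1 to -1.35 for H2A at 0 h and from -1.37 for H1 to -0.91 for H3 at 4 h. Lowest at 0 h were Hist3h2bb-ps (-3.66), Hist3h2ba (-3.31), Hist1h2aa (-3.05) and Hist2h2ab (-2.70). The first 3 of these had few 4sU reads, at 0.463, 0.695 and 1.56 FPKM in the 4sU library. Highest at 0 h were Hist2h2aa1 (-0.33), Hist1h2ao (-0.35) and Hist1h2be (-0.61). With own denominators for the total RNA, the members' medians were -1.41 and -1.01. The upper limit holds for both levels in this ratio, and 31 of 64 members were above 1.5 reads per base in total RNA.

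**Figure D5:**
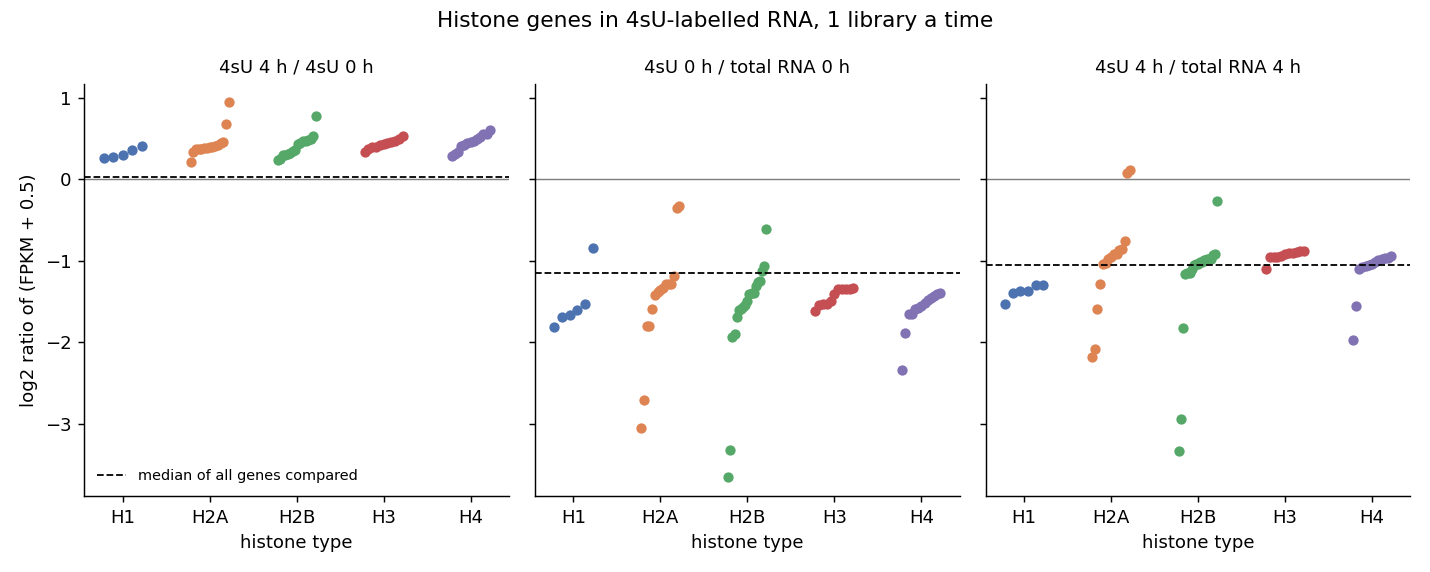
Log2 ratios of each member (points) by histone type for 4sU at 4 h over 4sU at 0 h, and for 4sU over total RNA at 0 h and at 4 h, with the median of all genes as a dashed line, with 1 library for each 4sU value. All 60 members of the first panel lie above the line at 0.02, and 6 of 64 and 39 of 64 lie above it in the others.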

How the data were processed

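Total RNA of 11 B cell and 16 fibroblast libraries and 4sU-labelled RNA of 2 fibroblast libraries had been sequenced after removal of ribosomal RNA. The authors deposited FPKM per gene, with 1 decimal for the B cells and 3 for the fibroblasts. The submitters' processing notes name TopHat2 2.0.8, SAMtools, HTSeq 0.5.3p9 and mm9. How reads were filtered, shared between similar genes or scaled is not given in the sources used here.

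Groups were taken from the labels. Each comparison was fitted on log2(FPKM + 0.5) over all genes that reached 1 FPKM in enough libraries to fill the smaller group (4 in fibroblasts), with limma 3.58.1 in R 4.3.3 (trend and robust, two-sided). P-values were adjusted by Benjamini and Hochberg over all genes tested, and a gene was called at an adjusted p under 0.05. The 3 B cell comparisons were fitted in pairs of groups, and the 16 fibroblast libraries in 1 fit. Reads and library denominators were recovered from the steps of the low values, for gene lengths up to 18000 bases, a bound lowered after a first run. In the B cell libraries, 44.6% to 72.9% of the genes checked gave whole reads, and recovered reads on genes were 11.2 to 12.8 times the recovered denominator. FPKM there is thus higher by about that factor than with reads on genes as the denominator. The reason is not given in the sources used here. The 4sU ratios use the same pseudocount and have no test. Sequence counts come from RefSeq promoters and GENCODE transcripts of GRCm38, not the build of the files. Apart from the fits in R, the work ran under Python 3.11.15. The fits and the recovery of reads and denominators were tested on simulated data.

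The genes, the lists and the tests were chosen with earlier results of these data known. Named genes are the 4 members of each type with the highest mean level in a set, the largest and smallest change in each comparison, members listed at 0 throughout, the 4 largest and 4 smallest 4sU ratios of at least 5 FPKM, and up to 3 genes of each list with the smallest adjusted p. Other members named (Hist1h2aa, Hist1h2bk, Hist1h2bj, Hist1h1t, Hist2h2be, Hist2h2ab, Hist4h4, Hist3h2bb-ps and those in the per-library accounts) were chosen after their values were seen. Alternatives were another pseudocount (0.1 or 1), no filter or 5 FPKM, median ratio or quantile scaling, a replicate block, Rpph1 as a covariate or a split, and leaving out each library. Own denominators were added after seeing the data. A further gene of the marker lists is not reported here.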

Additional observations from a re-analysis of the deposited data

Results flagged for a closer look

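In groups of 4 libraries, a library was singled out where its gap to the next took up most of the group's range. Of 102 groups of values examined, 6 met this, and chance gives about 1 in 20. WT spleen library 4 was low for Hist1h1a (666.5 FPKM) and Hist1h1b (711.7 FPKM), and it was the lowest WT library for most other members. In the fibroblasts, summed deposited FPKM stood apart for H2A in 4 h library 4 (1129.9), for H2B in 4 h library 3 (1356.7), for H3 in 4 h library 3 (930.7) and for H1 in 8 h library 1 (393.8). The fibroblast sums add genes whose deposited values were divided by different rotations of the library denominators, so a sum does not belong to 1 library's scale.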

How the results depend on the processing

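In Tg over WT spleen, the 60 called members became 29 with a replicate block, where 575 of 14021 genes rose. In the libraries with high Rpph1 they became 5, where 908 of 14202 genes rose and Hist1h1t turned to -1.0. Leaving out single libraries gave 30 to 61 members, while 1341 to 2684 of all genes rose. In tumours over WT spleen, the 61 became 0 by limma with the block, where none of all 14758 genes was called. With the block, 54 members were higher at an unadjusted p under 0.05, and 3784 of all genes were under it in either direction. Without single libraries, 57 to 62 members were called. Hist1h1t ran from -1.37 to 0.40, the latter without tumour library 3. In tumours over Tg spleen, 0 became 0 to 1. At 4 h and at 8 h of OHT, own denominators without the libraries numbered 4 called 2 members each in place of 0. These were Hist2h2ab (log2 -0.13) and Hist3h2a (0.09) at 4 h, and Hist1h2be (-0.14) and Hist2h2ab (-0.10) at 8 h. Of 12868 genes, that setting called 2969 higher and 3013 lower at 4 h, and 2061 and 2353 at 8 h, a far larger share than of the members. At 16 h, 0 became 0 to 1 without single libraries (Hist3h2ba without 16 h library 1), 1 with own denominators, 2 when these had a replicate block and 2 without the libraries numbered 4, Hist3h2a and Hist3h2bb-ps in both. Of 12818 to 13010 genes, those settings called 179, 1629, 2522 and 2635 higher and 1886, 2042, 3070 and 3184 lower, in that order. Hist3h2a at 16 h ran from -0.01 to 0.11 on the deposited scale without single libraries. The causes were not tested.

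Median ratio scaling moved mean summed levels by more than 1 SD, to 333.7 FPKM for H1 at 0 h and 373.4 at 16 h, 1071, 1102 and 1219 for H2A at 0, 8 and 16 h, 1230 and 1371 for H2B, 899.2 and 992.5 for H3, and 1175 and 1361 for H4 at 0 and 16 h. On the deposited values, same-numbered libraries correlated at -0.02 to 0.13 in the B cells and 0.02 to 0.64 in the fibroblasts (0.32 to 0.64 for those numbered 4). There, 3 of 9 and 8 of 16 libraries correlated best with their own number, and 2 of 6 and 19 of 24 pairs were over 0.1. Own denominators gave -0.03 to 0.73 in the fibroblasts (0.38 to 0.73 for those numbered 4), with 20 of 24 pairs over 0.1. On that scale, leaving out the libraries numbered 4 took the genes called at 4 h from 1417 higher and 1551 lower to 2969 and 3013. Not every pair was over 0.1 and no label ties the numbers to a shared source, so the numbers were not taken to pair the libraries. Of the alternatives for single members, 689 kept direction and call in Tg over WT spleen and 86 kept direction but lost the call; in tumours over WT spleen 640 and 55 did. The number of libraries and, in fibroblasts, the upper limit of about 2 reads per base restrict what could be detected.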
